A study of Mus musculus with 4 samples.

Results

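Polyamine synthesis and oxidation was followed in quadriceps through 10 genes, Odc1, Azin1, Oaz1, Amd1, Srm, Sms, Sat1, Sat2, Smox and Paox, taken by gene symbol from the 51826 rows of the deposited table. Each symbol stood on a row of its own, and all 10 passed the filter on low counts. The genes were chosen by function, with it known from earlier results of the same mice that Odc1 and Smox were lower in the knockout muscle, so the comparison between genotypes describes these genes and is no independent test of them.

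The data come from 4 sedentary male mice at about 20 weeks of age, 2 wild-type (WT) mice and 2 mice that lack the muscle-specific α2 exon of Mef2d (Mef2dα2 Eko, here also Eko), all on the C57BL6/J background. MEF2D is a transcription factor of muscle, and its pre-mRNA takes up either the α1 exon or the α2 exon. The exon was deleted in the germline by CRISPR-Cas9, so every tissue carries the deletion. The study kept 2 founder lines, and the sources used here do not say which of them gave the sequenced mice, which the study calls littermates. Polyadenylated RNA of each quadriceps gave 1 library, and the authors deposited expected counts, that is, reads per gene as estimated by RSEM, which divides a read that matches several genes among them by a probability model.

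Polyamines are small, positively charged molecules that bind nucleic acids and are needed for growth and translation. Ornithine decarboxylase makes putrescine from ornithine, and aminopropyl groups from decarboxylated S-adenosylmethionine turn putrescine into spermidine and spermidine into spermine. The way back runs either through acetylation followed by oxidation, or by direct oxidation of spermine.

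Promoter sequence of Odc1 and Smox is shown because these genes differed most between the genotypes, and that of Amd1 because it took the most counts. The windows were taken from RefSeq on GRCm38.p6 as the 250 bases before a gene's start, and 8 of the 10 genes matched, with 10 windows between them. Azin1 and Srm had no window. Bases inside an annotated exon of GENCODE release M21 were left out, which leaves chr12:17544623-17544793 on the plus strand for Odc1, chr2:131491654-131491763 on the plus strand for Smox, and chr10:40302189-40302438 on the minus strand for Amd1. RefSeq starts this Smox transcript downstream of the first Smox start in GENCODE, at 131491496, so the stretch shown for Smox lies inside the gene as GENCODE draws it and not before all of its exons. Capitals mark GGGCGG or its reverse complement CCGCCC, the GC box, which was searched for only after the windows had been seen.
Odc1: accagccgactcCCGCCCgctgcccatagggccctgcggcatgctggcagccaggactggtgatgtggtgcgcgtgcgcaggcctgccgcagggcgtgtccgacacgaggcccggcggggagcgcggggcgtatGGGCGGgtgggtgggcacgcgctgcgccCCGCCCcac
Smox: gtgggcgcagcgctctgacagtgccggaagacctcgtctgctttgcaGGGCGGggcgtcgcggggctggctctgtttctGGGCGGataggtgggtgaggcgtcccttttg
Amd1: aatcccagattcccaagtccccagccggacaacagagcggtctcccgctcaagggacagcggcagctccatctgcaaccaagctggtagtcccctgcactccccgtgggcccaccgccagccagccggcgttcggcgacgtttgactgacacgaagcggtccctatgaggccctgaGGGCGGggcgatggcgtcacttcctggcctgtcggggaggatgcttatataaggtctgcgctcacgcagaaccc

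The whole windows held 4 GC boxes in Odc1, 6 in Smox and 1 in Amd1, and 32.7% of all 32851 windows of this length held at least 1. GC content of the windows was 80.0% in Odc1, 68.0% in Smox and 64.4% in Amd1. The MEF2 consensus, which reads the same on both strands, was in none of the 10 windows of these genes and in 2.92% of all windows. CACGTG, the E-box that MYC and its partner MAX bind and which is also its own reverse complement, was in 1 window of Sms and in 6.02% of all windows. These are matches of letters in short windows, and nothing was measured on the binding of a factor there.

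Levels are given in CPM, which are counts scaled to the total of the library with a TMM factor. The totals were 72626757 to 85176059 expected counts and overlapped between the genotypes. They put 3 counts, an approximate upper limit for a count of 0, at 0.0348 to 0.0419 CPM. This limit covers counting error only and is no hard bound. Mef2d itself, summed over its exons, had 259 and 227 CPM in WT against 252 and 241 CPM in Eko muscle, so a count per gene does not check the deletion of 1 exon. Libraries differed in pairs by a chi-square of 35.5 to 215 per degree of freedom, so none was a repeat of another. Pairs with WT replicate 1 gave 119 to 215, and the other pairs 35.5 to 42.0. By this measure WT replicate 2 was nearer to the Eko mice (35.5 and 39.2) than to WT replicate 1 (148). A log2 fold change below 0 means a lower level in Eko than in WT muscle, and it was fitted with edgeR over 16120 genes, whose median log2 fold change was -0.01. With 2 mice against 2, an exact two-sided permutation test cannot give a p below 0.333.

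Markers of skeletal muscle fibres, such as Myh4 and Acta1, summed to 115693 to 120910 CPM in the 4 mice, a sum that Myh4 dominates. In 4 of these 7 markers both Eko mice lay below both WT mice, where 23.0% of all genes tested did so. Myh1, among them, had 4967 and 3984 CPM in WT against 3476 and 3121 CPM in Eko muscle. Myh2, also among them, had 1576 and 1709 against 1264 and 1041 CPM. Myh4 went the other way, with 64359 and 64361 CPM in WT against 65461 and 69587 CPM in Eko muscle. Both Eko mice lay above in 20.8% of all genes tested. Ckm and Tnnt3 overlapped. The 6 adipocyte markers summed to 167 and 99.5 CPM in WT against 94.6 and 71.3 CPM in Eko muscle, but only Cfd among them separated the genotypes. Without Cfd, left out after the data were seen, the sums were 119 and 82.6 against 86.0 and 65.6 CPM and overlapped. For the 6 macrophage markers the sums were 45.7 and 35.5 CPM against 30.9 and 24.6 CPM, and for the 3 markers of the nerve sheath 22.3 and 24.8 CPM against 27.6 and 33.5 CPM. Both Mef2dα2 Eko mice lay below both WT mice in the macrophage sum and in 4 of its 6 markers, where 23.0% of all genes tested did so. They lay above in the nerve sheath sum, and by little in the blood sum (67.0 and 66.1 against 67.1 and 70.0 CPM). The sums for muscle fibres, endothelium, fibroblasts and satellite cells overlapped. No marker was at 0, none of the 35 passed an adjusted p of 0.05, and the part of other cells in the polyamine results was not tested. In whole muscle, fewer cells of a type and less RNA per cell cannot be told apart.

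Odc1 and Smox, 2 of the 10 polyamine genes, passed an adjusted p of 0.05, both with lower levels in Eko muscle (quasi-likelihood test of edgeR, Benjamini-Hochberg adjustment over all genes). Over all genes tested, 0.416% passed in either direction and 0.310% were lower, but since this comparison chose the genes, nothing is read from the difference. In 6 genes, Odc1, Azin1, Amd1, Srm, Sat2 and Smox, both Mef2dα2 Eko mice lay below both WT mice, as in 23.0% of all genes tested. Both lay above in 1 gene, Sms, as in 20.8% of all genes. Oaz1, Sat1 and Paox overlapped. The log2 fold changes ran from -1.18 to 0.11 with a median of -0.29, and from -0.37 to 0.11 with a median of -0.10 in the 8 genes other than Odc1 and Smox.

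**Figure D1:**
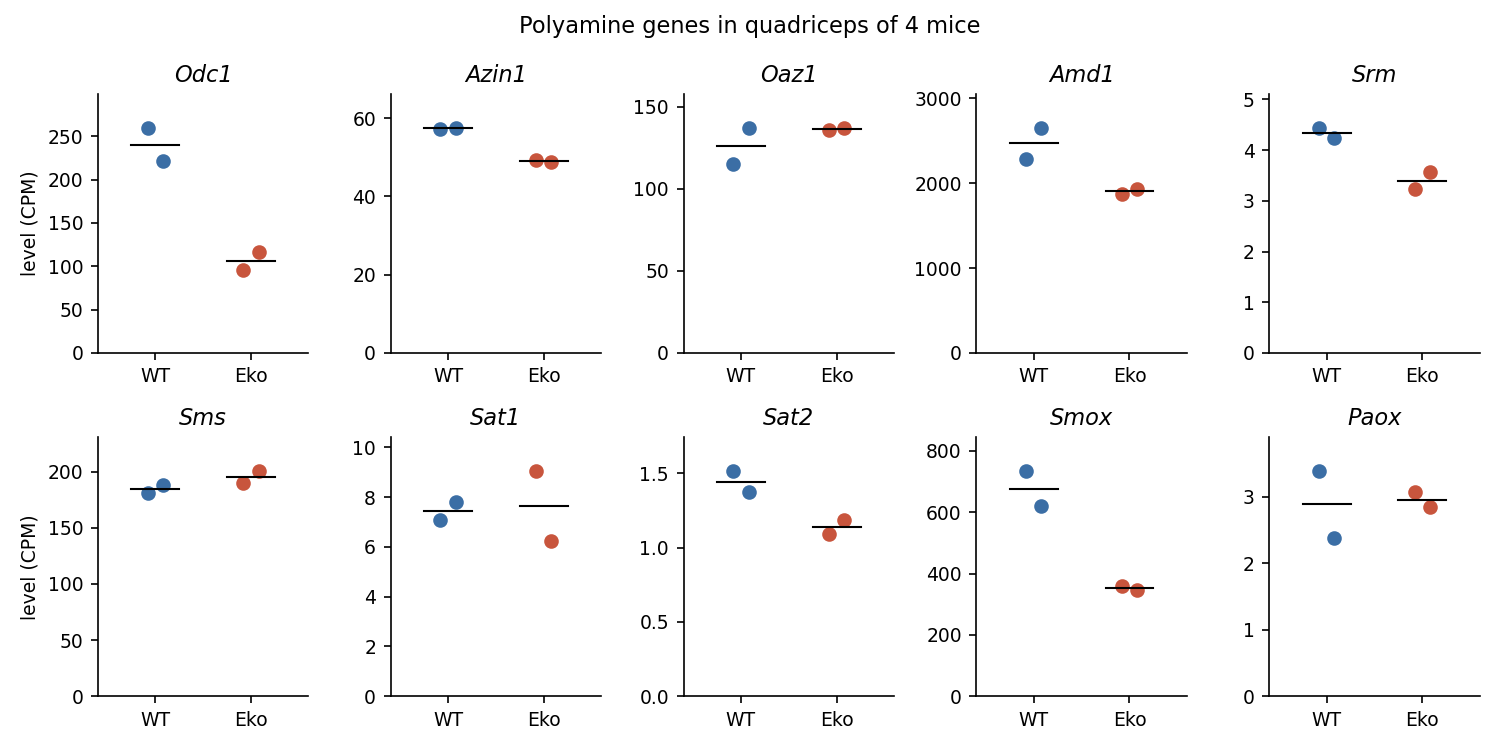
Level in CPM of each of the 10 polyamine genes in quadriceps (vertical axes from 0, 1 panel per gene), with 1 point per mouse, 2 WT and 2 Mef2dα2 Eko, and a line at each genotype's mean. In Odc1 the Mef2dα2 Eko mice sit at 96.0 and 116 CPM against 260 and 221 CPM in WT, and in Smox at 358 and 346 CPM against 735 and 619 CPM.

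Odc1 encodes ornithine decarboxylase, the short-lived enzyme that sets the rate of polyamine synthesis, and lies on chromosome 12 of GRCm38 from 17544794 to 17551505. It had 19708 and 17877 counts in WT against 8277 and 8314 counts in Eko muscle. In CPM these were 260 and 221 against 96.0 and 116. Both Mef2dα2 Eko mice were thus below both WT mice, and their mean was 44.2% of that in WT. On the log2 scale the difference was -1.18 (standard error 0.12), while mice of the same genotype differed by 0.23 in WT and by 0.28 in Mef2dα2 Eko mice. Leaving out 1 mouse at a time gave -1.32 to -1.03.

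Odc1 has processed pseudogenes, which are copies of its mRNA set back into the genome, and reads can match both. GENCODE lists 12 stretches with at least 90% identity to the Odc1 mRNA over at least 350 bases on the same strand, of which 10 have a row in the table and 5 had at least 10 counts over the 4 mice. In 4 of the 5, both Mef2dα2 Eko mice were lower. Gm7993, 95.7% identical over 1388 bases, had 1054 and 1181 counts in WT against 467 and 555 counts in Eko muscle. Gm9115 had 381 and 427 against 169 and 158 counts, Gm17709 had 668 and 558 against 277 and 280 counts, and Gm9260 had 230 and 143 against 83 and 83 counts. In Gm15470 the genotypes overlapped, with 20 and 16 against 14 and 24 counts. Since RSEM divides reads that match both Odc1 and a copy, these values do not stand apart from those of Odc1. The copies together came to 11.9% to 13.3% of the Odc1 counts in each mouse, and with their counts added to Odc1, a check chosen after the data were seen, the log2 fold change was -1.18 (standard error 0.12).

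**Figure D2:**
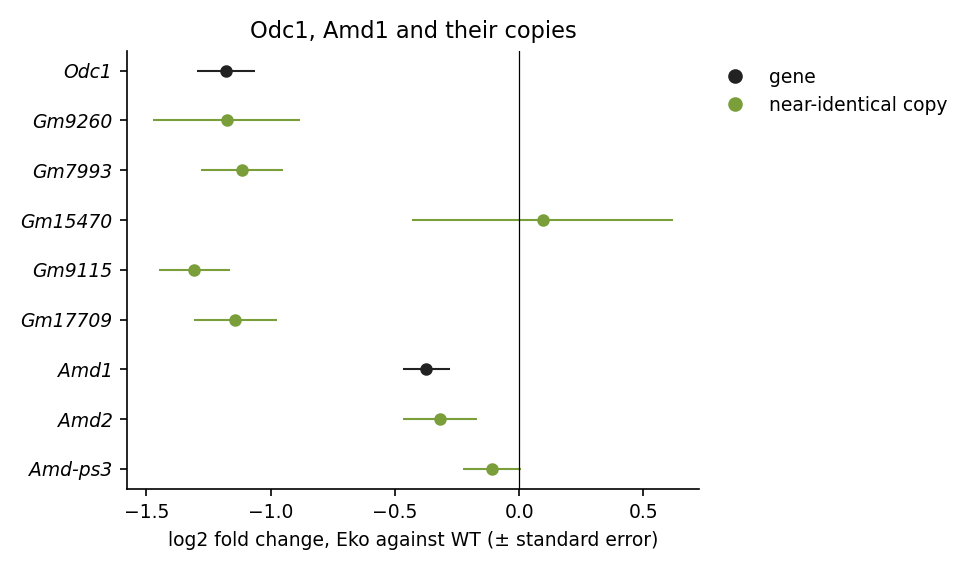
Log2 fold change of Mef2dα2 Eko against WT mice (horizontal axis, bars of ± 1 standard error) for Odc1 and Amd1 (black) and their near-identical copies that were tested (green). Of the copies of Odc1, 4 lie between -1.31 and -1.12 and Gm15470 at 0.09, while Amd2 lies at -0.32 and Amd-ps3 at -0.11 beside Amd1 at -0.37.

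Antizyme, encoded by Oaz1, binds ornithine decarboxylase and sends it to the proteasome, and polyamines raise its synthesis through a ribosomal frameshift. Oaz1 (chromosome 10, 80826656 to 80829290) had 115 and 137 CPM in WT against 135 and 137 CPM in Eko muscle. WT replicate 1 was low and the other 3 mice lay close together, so the genotypes overlapped. The log2 fold change was 0.11 (standard error 0.09), with -0.01 without WT replicate 1 and 0.26 without WT replicate 2. Azin1 (chromosome 15, 38487427 to 38519266) encodes antizyme inhibitor, a relative of ornithine decarboxylase that has no enzyme activity and takes antizyme away from it. Its level was 57.3 and 57.5 CPM in WT against 49.2 and 48.7 CPM in Eko muscle, so mice of a genotype lay close together and the genotypes did not overlap. The log2 fold change was -0.23 (standard error 0.06), which is -0.31 relative to the median of 0.08 for tested genes of like GC content (10 groups of equal size). Azin1 overlaps Gm49077 on the other strand, and the strand setting used for counting was not given in the sources used here.

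Ratios within a mouse, chosen after the values were seen and taken on CPM per kb of transcript, put these genes side by side. Odc1 stood to the sum of Oaz1 and Oaz2 as 0.682 and 0.494 in WT and as 0.201 and 0.246 in Eko muscle. Smox stood to Odc1 as 2.72 and 2.69 in WT and as 3.58 and 2.86 in Eko muscle. The difference in Odc1 itself enters both ratios.

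S-adenosylmethionine decarboxylase, from Amd1 (chromosome 10, 40287458 to 40302186, minus strand), supplies the aminopropyl groups for spermidine and spermine. It took the most counts of the 10 genes and was at rank 47 of all genes by mean CPM. It had 173214 and 214440 counts in WT against 161800 and 138186 counts in Eko muscle, or 2283 and 2652 against 1877 and 1932 CPM. The Mef2dα2 Eko mice lay close together below both WT mice, and their mean was 77.2% of that in WT. On the log2 scale the difference was -0.37 (standard error 0.09), between -0.48 and -0.25 when 1 mouse was left out. Amd1 did not pass the adjusted threshold in the edgeR fit and did in DESeq2.

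Amd2, a gene 99.6% identical to Amd1 over 3202 bases, had 7255 and 10400 counts in WT against 7050 and 7015 counts in Eko muscle. The pseudogene Amd-ps3, 99.9% identical over 1005 bases, had 22200 and 28505 against 27969 and 19556 counts. Scaled to the totals, Amd2 had 95.6 and 129 against 81.8 and 98.1 CPM, so that the genotypes overlapped in both copies, and the division of reads among Amd1, Amd2 and Amd-ps3 rests on RSEM's model. With the counts of all copies added to Amd1, the log2 fold change was -0.34 (standard error 0.10).

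The aminopropyl transferases come next. Srm (chromosome 4, 148591503 to 148594993) encodes spermidine synthase and had 4.44 and 4.24 CPM in WT against 3.24 and 3.57 CPM in Eko muscle. It rested on 255 to 343 counts per mouse, and the genotypes did not overlap (log2 fold change -0.35, standard error 0.13). Srm belongs to the group of genes with the highest GC content, whose median log2 fold change was -0.10, and relative to it Srm stood at -0.26. Sms (chromosome X, 157443855 to 157492287, minus strand) encodes spermine synthase and had 181 and 188 CPM in WT against 190 and 201 CPM in Eko muscle. All 4 mice lay within a narrow range, with a log2 fold change of 0.08 (standard error 0.07), or 0.02 relative to genes of like GC content. The ratio of Sms to Srm per kb was 14.7 and 15.9 in WT against 21.1 and 20.2 in Eko muscle.

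Smox (chromosome 2, 131491496 to 131525922) encodes spermine oxidase, which turns spermine straight back into spermidine and gives off hydrogen peroxide. It had 55744 and 50067 counts in WT against 30856 and 24724 counts in Eko muscle, and 735 and 619 against 358 and 346 CPM. Every Mef2dα2 Eko mouse was thus below every WT mouse, and the mean was 52.0% of that in WT. On the log2 scale the difference was -0.94 (standard error 0.09), against differences of 0.25 between the WT mice and 0.05 between the Mef2dα2 Eko mice. It ran from -1.05 to -0.81 when 1 mouse was left out. No near-identical copy of Smox was found under the rule used for Odc1, and GENCODE lists 17 transcripts for it, 11 of them coding, which a count per gene does not separate.

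Acetylation is the first step of the other way back. Sat1 (chromosome X, 155213132 to 155216449, minus strand) encodes spermidine/spermine acetyltransferase, which is induced when polyamines are in excess, and had 7.06 and 7.80 CPM in WT against 9.05 and 6.22 CPM in Eko muscle. The Mef2dα2 Eko mice lay on either side of both WT mice, and the log2 fold change of 0.04 (standard error 0.18) became -0.24 without Mef2dα2 Eko replicate 1 and 0.28 without Mef2dα2 Eko replicate 2. Sat2 (chromosome 11, 69622024 to 69623870), which encodes a relative of that enzyme, had 1.52 and 1.37 CPM in WT against 1.09 and 1.19 CPM in Eko muscle. The genotypes did not overlap, but the level rested on 85 to 115 counts per mouse (log2 fold change -0.34, standard error 0.22).

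Paox (chromosome 7, 140115799 to 140137224) encodes the peroxisomal oxidase that acts on the acetylated polyamines. It had 3.39 and 2.39 CPM in WT against 3.07 and 2.84 CPM in Eko muscle. The WT mice enclosed both Mef2dα2 Eko mice, with a log2 fold change of 0.04 (standard error 0.20, and -0.18 to 0.31 with 1 mouse left out). Paox overlaps Echs1 on the other strand, and Gm19680, 99.9% identical to it over 1358 bases, had 101 to 121 counts, so its counts are uncertain. Per kb, Smox exceeded Paox 439 and 525 times in WT and 236 and 247 times in Mef2dα2 Eko mice. The difference in Smox itself enters this ratio, and its size rests on the uncertain Paox counts.

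**Figure D3:**
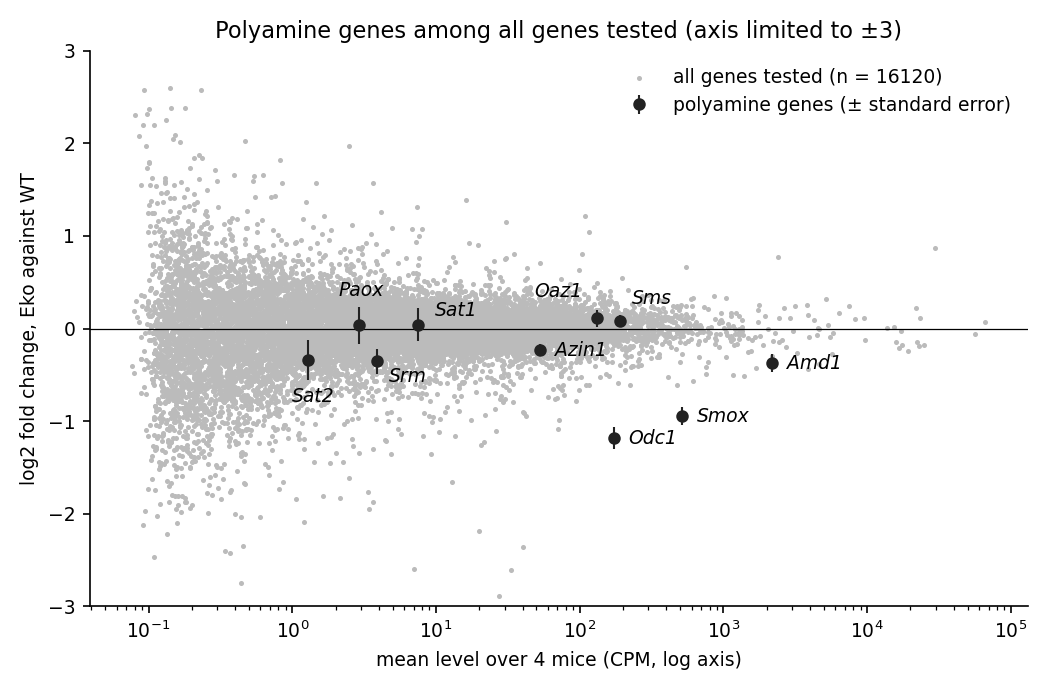
Log2 fold change of Mef2dα2 Eko against WT mice (vertical axis, limited to 3 in either direction, which leaves out 9 genes) against the mean level over the 4 mice in CPM (horizontal log axis) for the 16120 genes tested (grey) and the 10 polyamine genes (black, bars of ± 1 standard error). Odc1 at -1.18 and Smox at -0.94 lie below most genes of like level, and the other 8 lie between -0.37 and 0.11.

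Levels can be set against each other between genes only per length, so CPM was divided by the length of each gene's longest coding transcript. In that order Amd1 came first, at 586 to 828 CPM per kb over the 4 mice, followed by Smox at 150 to 320, Oaz1 at 107 to 128 and Odc1 at 43.5 to 118. Sms followed at 48.7 to 54.0, Azin1 at 9.99 to 11.8, Sat1 at 5.35 to 7.79, Srm at 2.42 to 3.32, Sat2 at 1.13 to 1.57 and Paox at 0.513 to 0.728 CPM per kb. Neighbours in the order overlapped in 2 places. Oaz1 and Odc1 overlapped, with Oaz1 above Odc1 in 3 of the 4 mice, and Odc1 and Sms overlapped, with Odc1 above Sms in 2 mice. By mean, Odc1 stood above Sms in WT (109 against 49.6 CPM per kb) and just below it in Mef2dα2 Eko mice (48.1 against 52.5 CPM per kb). The order by mean was the same when CPM was divided by the joined length of all annotated exons, and which transcripts these muscles use was not measured.

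**Figure D4:**
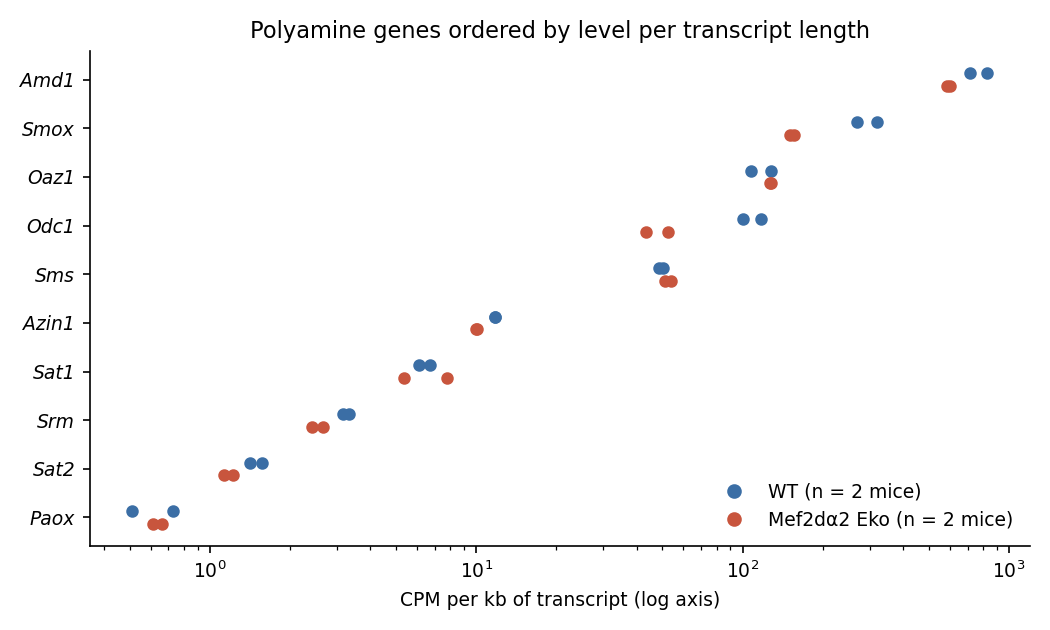
Level per transcript length of the 10 polyamine genes, ordered by the mean (vertical axis), in CPM per kb (horizontal log axis), with 1 point per mouse for 2 WT and 2 Mef2dα2 Eko mice. Amd1 stands at 586 to 828 and Paox at 0.513 to 0.728 CPM per kb. Of the Mef2dα2 Eko points of Odc1, that at 52.7 falls among those of Sms and that at 43.5 lies below them.

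Genes with the most similar pattern over the 4 mice were sought by the Euclidean distance between log2 CPM values, each taken relative to the WT mean, among 12127 other genes with a mean of at least 1 CPM and no mouse at 0. Nearest to Odc1 were 1700001O22Rik (distance 0.11), Gm17709 (0.11) and Aacs (0.14). Of these Gm17709 is one of the copies of Odc1, and Aacs encodes acetoacetyl-CoA synthetase. Aacs had 3.85 and 3.43 CPM in WT against 1.54 and 1.64 CPM in Eko muscle. Nearest to Smox were Galm (0.07), which encodes a sugar mutarotase, Spred3 (0.11) and Gm4316 (0.15). Galm had 4.07 and 3.49 CPM in WT against 1.91 and 1.96 CPM in Eko muscle. Smox was the gene at rank 21 from Odc1, at a distance of 0.41. With 4 points that fall into 2 genotypes, such distances describe the size of the difference more than a course over samples.

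The other genes of polyamine metabolism were taken from a list of 53 genes in 8 roles, which stand on 54 rows since Dohh has a pair of them. Of these rows, 42 were tested, and 0 passed an adjusted p of 0.05 with the quasi-likelihood test of edgeR. At an unadjusted p under 0.05 there were 12, 6 lower and 6 higher, where 11.6% of all genes tested had such a p. DESeq2 called 4 at its adjusted threshold, and 1.97% of all genes. The median log2 fold change of the 42 was -0.06, beside -0.01 for all genes tested. Both Mef2dα2 Eko mice lay below both WT mice in 13 and above in 9, where 23.0% and 20.8% of all genes tested did.

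**Figure D5:**
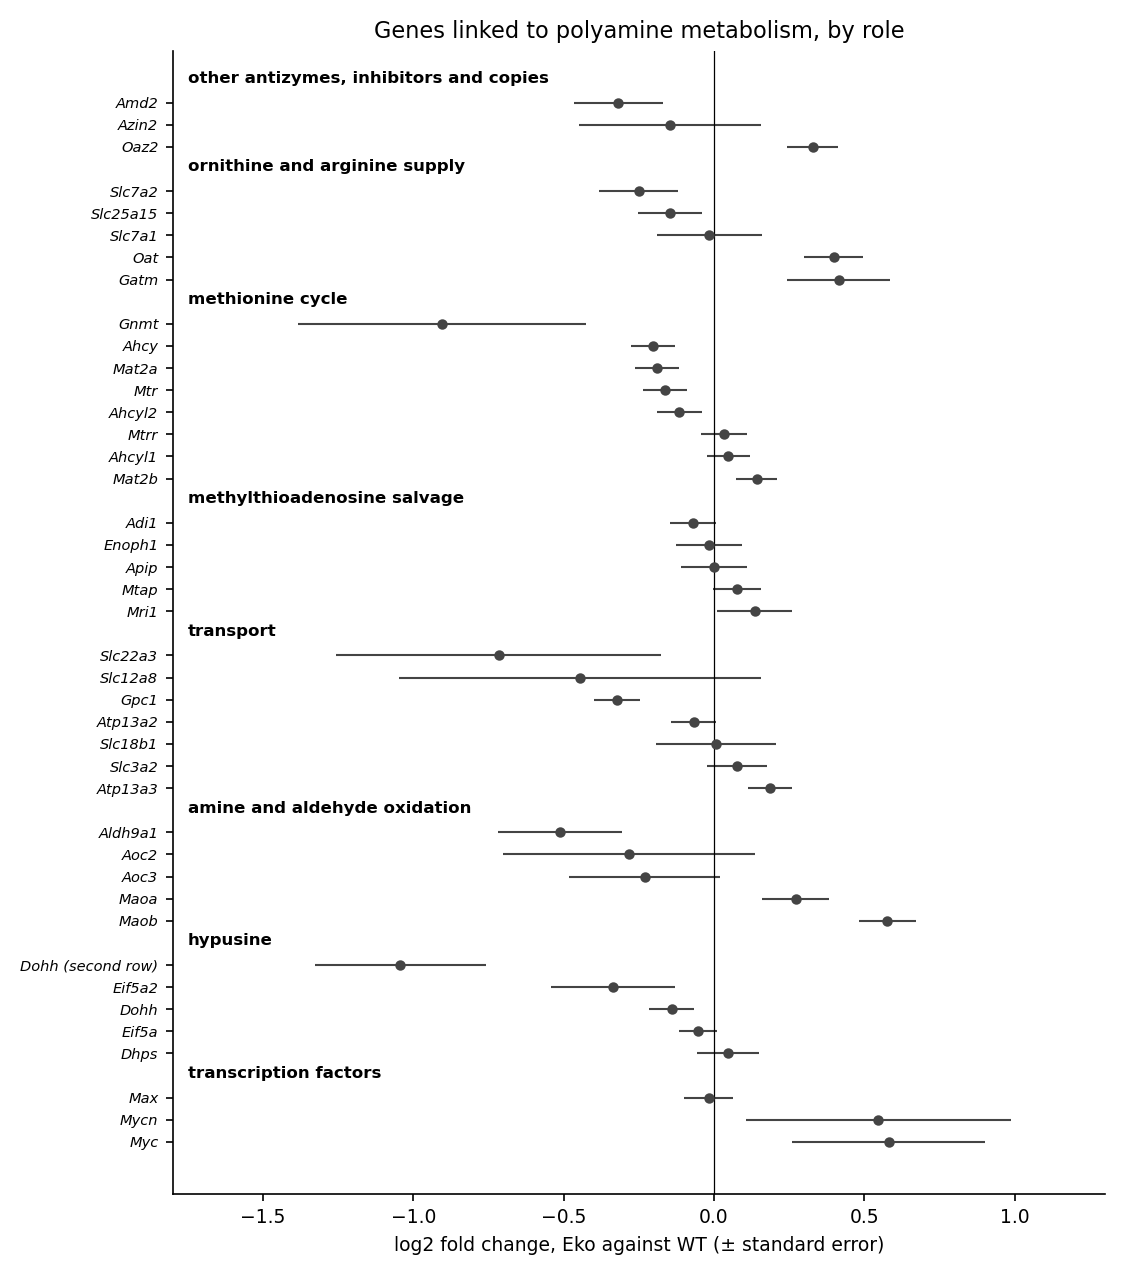
Log2 fold change of Mef2dα2 Eko against WT mice (horizontal axis, bars of ± 1 standard error) for 41 of the 42 tested rows of genes linked to polyamine metabolism, grouped by role (vertical axis). Maob stands at 0.58 and the second of the rows named Dohh at -1.04, and none passed the adjusted threshold.

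Among the other antizymes and copies, Oaz2, a second antizyme, had 120 and 138 CPM in WT against 165 and 158 CPM in Eko muscle. Both Eko mice lay above both WT mice, with a log2 fold change of 0.33 (standard error 0.08 and adjusted p = 0.232 in edgeR). Oaz3, the antizyme of the testis, had 2 to 5 counts per mouse and Satl1 had 0 in all 4, so neither was tested. For a count of 0 the approximate upper limit is 0.0348 to 0.0419 CPM.

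In the supply of ornithine, Oat, the aminotransferase that links ornithine to glutamate, had 108 and 131 CPM in WT against 155 and 159 CPM in Eko muscle (log2 fold change 0.40, standard error 0.10, adjusted p = 0.222 in edgeR). Gatm, which takes arginine into creatine synthesis and releases ornithine, had 2.02 and 2.40 against 2.81 and 3.09 CPM. In both genes the Eko mice lay above both WT mice, without passing the test. The arginases that make ornithine in liver and kidney, Arg1 and Arg2, had 1 to 5 counts per mouse. Otc, Agmat and Slc25a2 also had too few counts to be tested, at most 15 in a mouse.

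Methionine cycle genes, which supply S-adenosylmethionine, had a median log2 fold change of -0.14 over the 8 tested, and both Eko mice lay below both WT mice in 5, as in 23.0% of all genes tested. The one with most counts, Mat2a, the S-adenosylmethionine synthetase of tissues other than liver, had 245 and 231 CPM in WT against 201 and 217 CPM in Eko muscle (log2 fold change -0.19, standard error 0.07, adjusted p = 0.396 in edgeR). Ahcy, which clears S-adenosylhomocysteine, had 26.6 and 28.4 against 23.8 and 24.0 CPM. Gnmt had the largest difference of the group, -0.91 (standard error 0.48), but rested on 10 to 35 counts. The liver genes Mat1a and Bhmt had 0 counts in all mice.

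Salvage of methylthioadenosine, the by-product of both aminopropyl transfers, showed the smallest differences of the 8 roles, between -0.07 and 0.14 on the log2 scale in its 5 genes. Mtap, the phosphorylase of the first step, had 16.0 and 17.3 CPM in WT against 17.7 and 17.4 CPM in Eko muscle. Mri1 had 8.07 and 9.74 against 9.24 and 10.3 CPM, and Adi1, with the most counts, 79.0 and 75.7 against 69.9 and 77.4 CPM. The 2 genotypes overlapped in Mri1 and Adi1.

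Of the transport genes, Gpc1, a heparan sulfate proteoglycan that takes part in polyamine uptake, took the most counts, with 366 and 332 CPM in WT against 273 and 286 CPM in Eko muscle (log2 fold change -0.32, standard error 0.08, adjusted p = 0.204 in edgeR). The WT mice lay above both Mef2dα2 Eko mice. Slc22a3 and Slc12a8 had the largest differences, -0.72 (standard error 0.54) and -0.45 (standard error 0.60), on 17 to 62 and 6 to 15 counts, and overlapped. Slc22a2 had at most 2 counts in a mouse.

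Maob, a monoamine oxidase of the mitochondrial outer membrane, came nearest to the threshold among the linked genes. It had 1390 and 1563 counts in WT against 2233 and 2164 counts in Eko muscle, or 18.3 and 19.3 against 25.9 and 30.3 CPM. Both Eko mice lay above both WT mice, with a log2 fold change of 0.58 (standard error 0.09 and adjusted p = 0.0849 in edgeR). Aldh9a1, which oxidizes aminoaldehydes, had 4.19 and 6.32 CPM in WT against 3.91 and 3.45 CPM in Eko muscle (log2 fold change -0.51, standard error 0.21). Aoc1, the diamine oxidase that acts on putrescine, had 1 count over all 4 mice.

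Spermidine is also the source of hypusine, the modified lysine of the translation factor eIF5A. Eif5a, the carrier, had 220 and 224 CPM in WT against 211 and 218 CPM in Eko muscle (log2 fold change -0.05, standard error 0.06), and Eif5a2 2.54 and 2.00 against 1.65 and 1.96 CPM. Dohh, the hydroxylase that completes hypusine, had its main row at 20.8 and 20.8 against 19.4 and 18.3 CPM, while the second row of that name had 101 and 82 counts in WT against 45 and 44 counts in Eko muscle (log2 fold change -1.04, standard error 0.28, adjusted p = 0.256 in edgeR). The table does not say how these rows differ.

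Among transcription factors known to act on Odc1, Myc had 4.65 and 2.26 CPM in WT against 4.38 and 5.96 CPM in Eko muscle, so that the genotypes overlapped (log2 fold change 0.58, standard error 0.32). Mycn rested on 13 to 28 counts (log2 fold change 0.55, standard error 0.44).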

How the data were processed

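The authors checked reads of stranded polyA libraries with FastQC and aligned them to mm10; STAR 2.6.1a is named in the submitters' processing notes. Expected counts were estimated by the authors with RSEM against the Ensembl annotation of GRCm38 and deposited without normalization. A strand setting is not given in the sources used here. All deposited values were whole, so rounding changed none.

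The genes and lists were chosen with earlier results of these data known. Counts were fitted in R 4.3.3 with edgeR 4.0.16 (quasi-likelihood test, TMM, default filter on low counts, genotype as the sole term) over 16120 genes, with Benjamini-Hochberg adjustment and a threshold of 0.05. Depth was 72626757 to 85176059 expected counts per library. Genotypes came from the sample labels. Positions, lengths and GC content were from GENCODE M21, which holds 97.0% of the genes tested; copies were found with blastn 2.17.0 on the annotated transcripts. Alternatives were DESeq2 1.42.0, limma-voom (limma 3.58.1), the likelihood ratio test, RLE and upper-quartile scaling, other filters, a replicate block and leaving out each mouse. Adding the counts of copies and a GC correction were chosen after seeing the data.

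All members are named. Of the linked genes, those called, the 2 with the largest differences and the one with most counts in each role, and those not tested are named. Some linked genes are counted but not reported here by name. Other exceptions are Dohh's main row and the copies, named after their values were seen. Protein sequences were not used here.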

Additional observations from a re-analysis of the deposited data

How the results depend on the processing

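Over 14 alternatives, 12 of them planned, the log2 fold changes of the 10 polyamine genes gave 140 values. Of these, 129 moved by less than 1 SD between mice of a genotype and 135 kept their sign. That SD comes from the same mice, and the shift when a mouse is left out is set by the same differences. Most other alternatives reuse the same counts, so the 129 are a description and no test of robustness. The 5 with the other sign were in Oaz1, Sat1 and Paox, each with 1 mouse left out. Odc1 and Smox were called under every alternative with a test, and their count of 2 became 3 with DESeq2 and with no filter on low counts, where Amd1 joined them. It stayed at 2 with any mouse left out.

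Of the linked genes 0 were called. With DESeq2 there were 4 (Maob, Oat and Oaz2 higher, Gpc1 lower), with no filter on low counts 9, and with the likelihood ratio test 1, Maob. Leaving out 1 mouse gave 0 to 3, with 3 without WT replicate 2 and 1 without either Mef2dα2 Eko mouse. Over all genes, 67 calls became 318 with DESeq2, 312 with the likelihood ratio test, 799 with no filter, 23 with at least 1 CPM in 2 libraries, and 99 to 299 with 1 mouse left out (299 without WT replicate 2, 204 without Mef2dα2 Eko replicate 1 and 126 without Mef2dα2 Eko replicate 2). With 1 mouse left out, the lone mouse of a genotype is assumed to vary like the others. The cause of these shifts was not tested.

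With the replicate number as a block, 2 polyamine genes, 2 linked genes and 186 of all genes were called. The study calls the mice littermates, and mice with the same replicate number carry neighbouring tag numbers, but no source used here ties a litter to a replicate number. The differences between replicates 1 and 2 correlated between the genotypes by 0.16 over genes, which are not independent. With genes in 10 groups of equal size by GC content, the median log2 fold change ran from 0.08 in the lowest group to -0.10 in the highest. Depth limits Sat2, Srm and Paox, and 2 mice per genotype limit every comparison.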
